A study of Mus musculus with 11 samples.

Results

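Accessible chromatin was examined at 9 genes of oxidative protein folding and stress in the endoplasmic reticulum (ER): Ero1l, P4hb, Pdia3, Pdia4, Hspa5, Hsp90b1, Atf6, Xbp1 and Ddit3. The members were all regions of 1 merged ATAC-seq list that overlapped one of these genes or the 20 kb upstream of it, and 41 of the 94963 regions met this rule. They lay at 8 of the 9 genes. P4hb, which encodes a protein disulfide isomerase, is not analysed here. ATAC-seq marks open chromatin by the places where the Tn5 transposase cuts. The series comprised 11 samples of MPC2, a conditionally immortalised mouse mesenchymal progenitor line derived from 1 clone: 3 undifferentiated cultures (MSCs) with DMSO vehicle, 3 MSC cultures with FG-4592, 2 cultures of osteocytes with vehicle and 3 of osteocytes with FG-4592. Osteocytes were MPC2 cells differentiated for 3 weeks, and every culture was treated for 48 h. FG-4592 (Roxadustat), used at 50 uM, inhibits the prolyl hydroxylases that mark the hypoxia-inducible factors (HIFs) for degradation. The list gives a single pooled level per region, read as the average log2 CPM (Tn5 cuts scaled to library size) over all samples. There was accordingly no value per sample, no replicate error, no known depth and no comparison of drug with vehicle or of osteocytes with MSCs, and every difference below is between regions of the pooled list. A level counts cuts over the whole region, so genes were compared by log2 CPM per kb of region width or within bins of like width.

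Secreted and membrane proteins fold in the ER, where disulfide bonds are made. Ero1l (the older symbol of Ero1a) oxidises protein disulfide isomerases such as P4hb, Pdia3 and Pdia4, which pass the bonds on to their substrates. Hspa5 (BiP) and Hsp90b1 (Grp94) are the ER members of the Hsp70 and Hsp90 chaperone families. When unfolded protein builds up, the membrane sensors Atf6, Ern1 and Eif2ak3 start the unfolded protein response: cleaved Atf6 and spliced Xbp1 act on promoters through the ER stress response element (ERSE), and Atf4 acts through amino acid response elements (AAREs), among them that of Ddit3, which encodes CHOP. Cells of bone lineage make large amounts of collagen and depend on this system, and Ero1l is a known target of HIFs. An ERSE was searched as CCAAT, 9 bases and CCACG, and the HIF motif (hypoxia response element, HRE) as its core ACGTG or GCGTG, in both cases on both strands.

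The ERSEs are shown first, because they are the element through which Atf6 and Xbp1 are known to act. The 3 member regions with an exact ERSE at the gene's own start held 4 matches, printed here in the direction of the ERSE with 5 flanking bases and with its outer blocks in capitals. They lie at chr2:34772025-34772043 (Hspa5), chr11:5520906-5520924 (Xbp1), chr10:86705638-86705656 (Hsp90b1, distal) and chr10:86705533-86705551 (Hsp90b1, proximal) of mm10.
Hspa5: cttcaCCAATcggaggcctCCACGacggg
Xbp1: accggCCAATcgcggacggCCACGaccct
Hsp90b1 distal: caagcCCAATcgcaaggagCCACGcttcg
Hsp90b1 proximal: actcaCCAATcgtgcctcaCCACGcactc

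The 250 bases before the annotated start of Hsp90b1 (chr10:86705510-86705759, minus strand, printed in the direction of the gene) hold both of its ERSEs, in capitals. The distal one runs in the direction of the gene and the proximal one against it. This stretch overlaps no annotated exon and lies inside the accessible region.
Hsp90b1 upstream: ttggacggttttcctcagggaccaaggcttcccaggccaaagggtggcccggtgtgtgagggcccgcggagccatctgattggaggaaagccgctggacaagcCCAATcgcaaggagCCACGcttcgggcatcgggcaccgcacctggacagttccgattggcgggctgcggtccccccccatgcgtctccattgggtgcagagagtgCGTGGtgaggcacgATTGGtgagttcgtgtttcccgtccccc

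Of the 41 member regions, 8 lay within 1000 bp of an annotated start of the member gene, 7 lay at starts of other protein-coding genes, 12 were intronic, 4 touched an exon and 10 lay upstream outside any coding start. The count per gene went from 2 at Pdia3, Ddit3 and Hsp90b1 to 14 at Atf6, a gene of 163098 bp. Counts were also set against gene length. Among coding genes within 20% of the same length, 27.5% had fewer regions than Pdia3, 29.8% fewer than Hsp90b1, 51.0% fewer than Ero1l, 52.2% fewer than Ddit3, 67.9% fewer than Hspa5, 72.0% fewer than Atf6 and 81.4% fewer than Xbp1. Pdia4 stood at the far end: it had 10 regions in its window, more than 99.4% of 2410 genes of like length. Of these, 5 overlapped the gene itself (17290 bp) and 5 lay upstream, over the neighbouring gene Zfp786. Its regions apart from starts were low, as given further on. Each of the 8 genes had a region at an own start. Over all 21911 protein-coding genes the share was 64.1%, but that figure keeps genes without any region while the 8 were those with at least 1, so nothing is read from the difference.

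**Figure D1:**
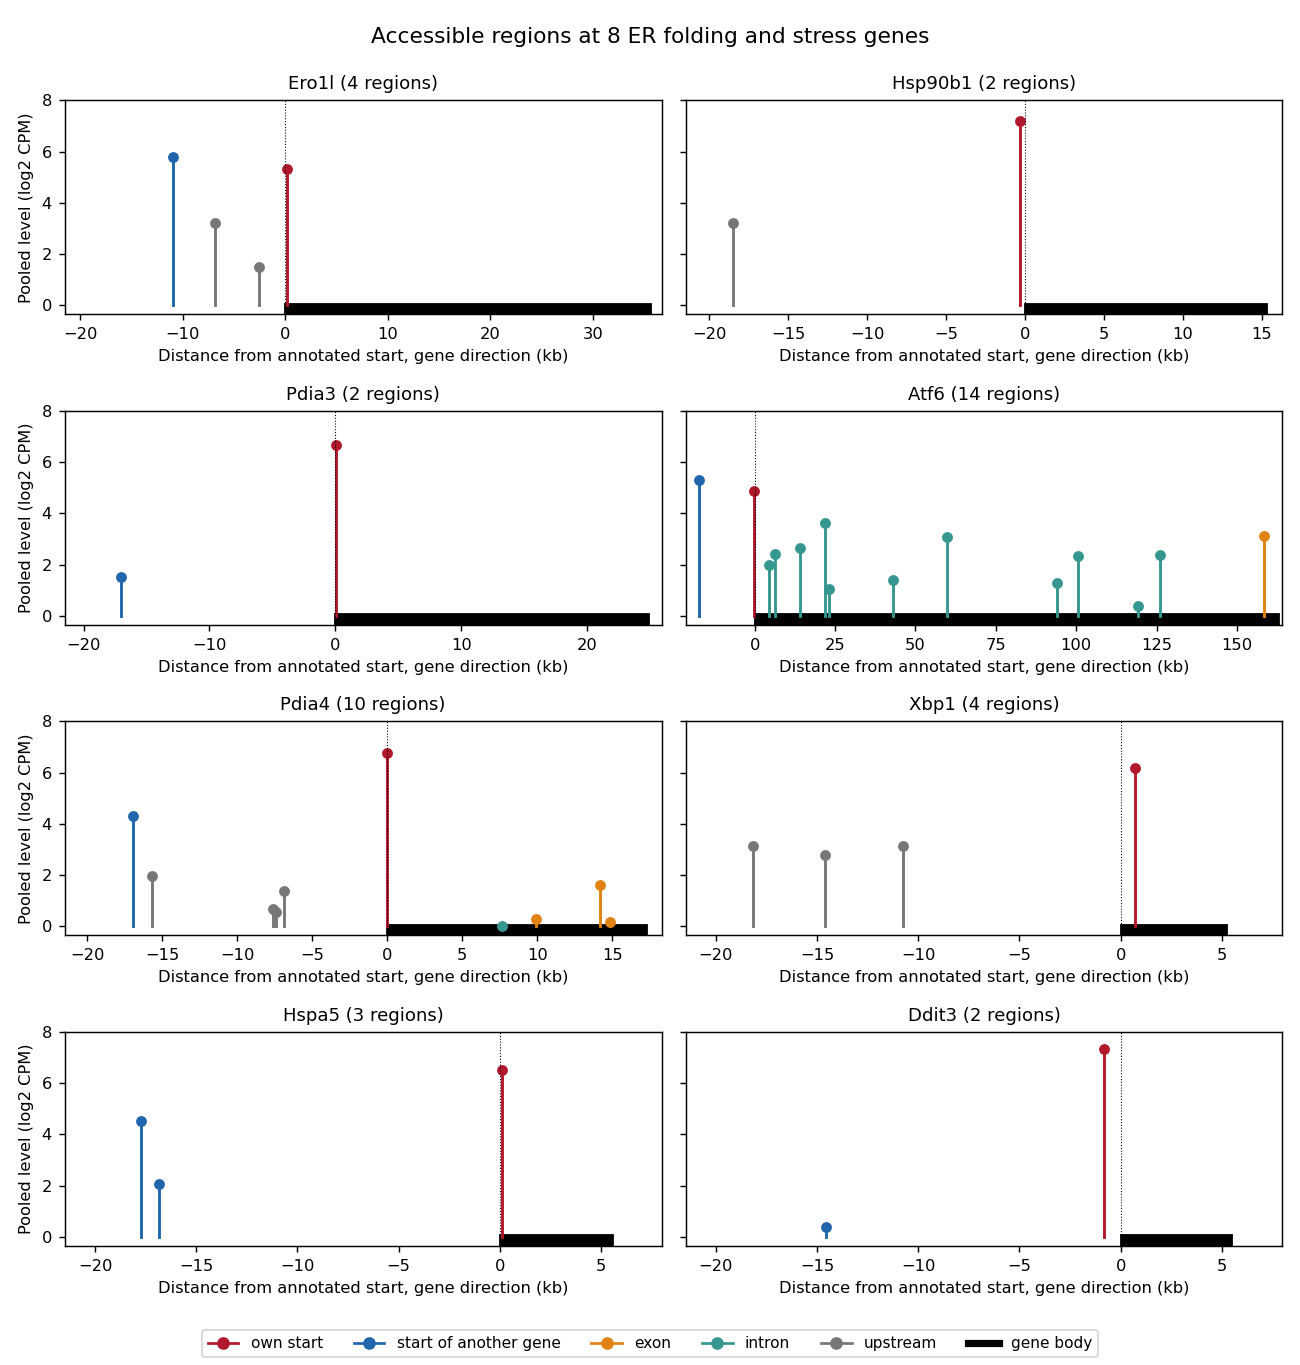
Pooled level (log2 CPM, vertical axis) of the 41 regions against the distance of their midpoint from the annotated start in kb, in the direction of the gene, 1 panel per gene. Each stem is 1 region, coloured by place, and the black bar is the gene body. At 6 of the 8 genes the own-start region is the highest. At Ero1l and Atf6 the region at the start of a neighbouring gene is higher.

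Own-start regions had higher pooled levels than most other member regions. The 8 own-start regions had a median of 6.59 log2 CPM (4.88 to 7.32), and the 17852 regions at starts of coding genes had a median of 4.32. The 26 member regions away from any coding start had a median of 1.97 (0.00 to 3.64), close to 1.90 over all 77111 such regions. Over all 41 member regions the median was 2.66, against 2.12 for the whole list. Member start regions were also wide, with a median of 1568 bp against 953 bp, and level rises with width across start regions. Within 20 bins of equal size by width, 6 of the 8 own-start regions were still above the median of their bin, and 5 were above its 90th percentile.

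**Figure D2:**
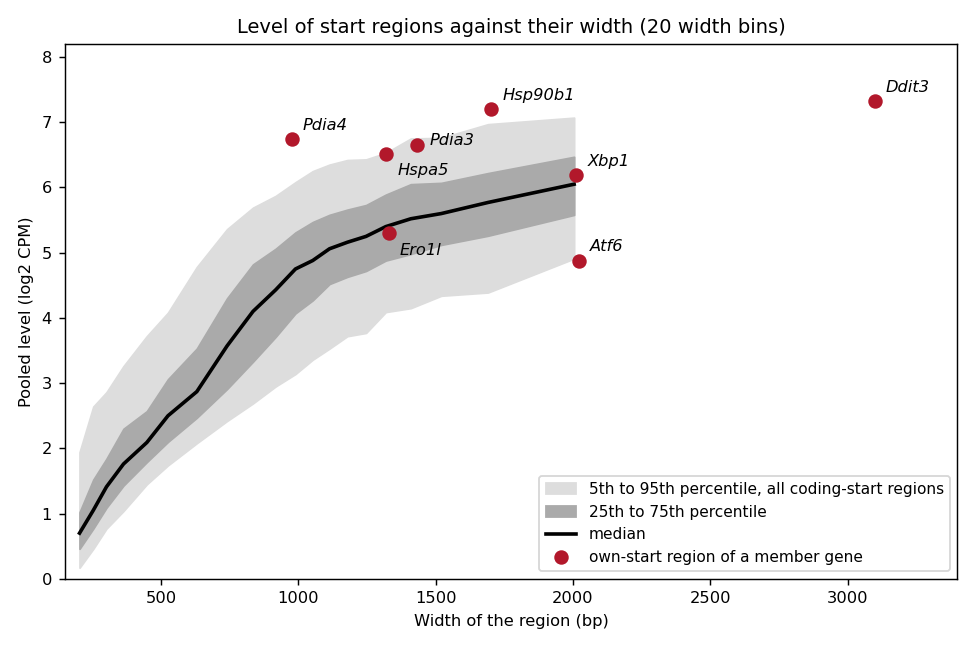
Pooled level (log2 CPM) of start regions against region width (bp). Grey bands and the black line give percentiles and the median of all 17852 coding-start regions in 20 width bins, drawn at each bin's median width, and red points are the own-start regions of the 8 genes. Pdia4 lies 2.00 above the median of its bin, and Atf6 lies 1.18 below.

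The oxidoreductases fell on both sides of this range. The start region of Pdia4 (chr6:47812926-47813902, 977 bp) reached 6.75 log2 CPM, or 6.78 log2 CPM per kb, the highest per kb of the 8 genes and above 99.7% of coding-start regions. The start region of Pdia3 (chr2:121413119-121414550, 1432 bp), which also covers a start of Catsper2, had 6.65 log2 CPM and 6.14 per kb, above 96.8%. Both isomerases thus lay near the top of all start regions. The region at Ero1l (chr14:45317898-45319227, 1330 bp) had 5.30 log2 CPM and 4.89 per kb, above 67.8% of coding-start regions, and lay 0.10 below the median of its width bin. Ero1l, the oxidase that feeds the isomerases, was therefore near the middle of the start regions in this list.

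Both chaperone genes had high start regions. That of Hsp90b1 (chr10:86704978-86706680, 1703 bp), shared with a start of Ttc41, had 7.20 log2 CPM and 6.43 per kb, above 98.7% of coding-start regions per kb. That of Hspa5 (chr2:34771416-34772736, 1321 bp) had 6.52 log2 CPM and 6.12 per kb, above 96.6%. The start regions held 94.1% of all CPM at the Hsp90b1 locus and 77.2% at the Hspa5 locus.

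The 3 stress-signalling genes also spanned a wide range. The region over the start of Ddit3 (chr10:127288386-127291485) was 3100 bp wide, the 8th widest of the whole list, and reached across a start of the neighbouring gene Mbd6. It had the highest level of the members, 7.32 log2 CPM. Per kb it came to 5.69, above 90.7% of coding-start regions and below the isomerases and chaperones. Within its width bin (1815 to 3573 bp) it was above 97.9% of the regions, so the order depends on the scale. In their own bins that share was 99.8% for Pdia4, 97.3% for Hsp90b1, 94.5% for Hspa5 and 93.9% for Pdia3. Xbp1 (chr11:5520347-5522359, 2013 bp) had 6.19 log2 CPM and 5.18 per kb, above 77.2%. It lay only 0.14 above the median of its width bin, where 58.5% of the regions were lower. Atf6 was the lowest member on either scale. Its region (chr1:170866936-170868957, 2022 bp) had 4.88 log2 CPM and 3.86 per kb, above 37.8% of coding-start regions, and only 4.51% of the regions in its width bin were lower. Its GC content, 45.8%, was also the lowest of the 8 start regions, which otherwise ran from 56.8% to 64.8%. Whether base composition bears on the level was not tested. With 1 pooled value per region, none of these orders can be set against a spread between samples.

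At 2 genes the highest region of the window belonged to a neighbour. The region at the start of the proteasome gene Psmc6, 10968 bp upstream of the start of Ero1l, had 5.80 log2 CPM, and the start of Ero1l itself held 36.9% of the CPM in its window. The region at the starts of Dusp12 and Gm26620, 17416 bp upstream of the start of Atf6, had 5.29, and the start of Atf6 held 22.2%. At Hspa5 both other regions lay at starts of Gapvd1 (4.52 and 2.05). Single regions at starts of Zfp786 (4.29, upstream of Pdia4), Catsper2 (1.50, upstream of Pdia3) and Dctn2 (0.39, upstream of Ddit3) made up the rest. The 20 kb rule takes in these regions, and it does not show which gene a region acts on.

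The member regions away from coding starts reached at most 3.64 log2 CPM, below every own-start region. Atf6 had 11 intronic regions between 0.37 and 3.64 log2 CPM, the highest at chr1:170845296-170846337, and 1 over its last exon with 3.13. Xbp1 had 3 upstream regions outside any coding gene, at 3.14, 2.80 and 3.15 log2 CPM, the last at chr11:5509380-5510429, and Hsp90b1 had 1 of 3.21 inside Ttc41. Ero1l had 2, with 3.21 at chr14:45325465-45325802 and 1.48. The many regions of Pdia4 were of another kind. Its 8 regions away from starts, 4 in the gene and 4 inside Zfp786, were 200 to 358 bp wide and had levels of 0.00 to 1.98, so that 75.1% of the CPM of the 10 regions lay at the start.

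Exact ERSEs were rare in the list as a whole. They were present in 3 of 8 own-start regions of the members (37.5%, 95% Wilson interval 13.7 to 69.4, counting error only), in 23 of 17852 coding-start regions (0.129%) and in 46 of all 94963 regions (0.0484%). By gene, 26 of the 14040 genes with an own-start region had an ERSE in it (0.185%). The consensus was defined on promoters of this kind, those of Hspa5 and Hsp90b1 among them, so its presence there is not independent evidence. The match in Hspa5 begins 55 bp after the GENCODE start and 65 bp before the RefSeq start, inside the untranslated part of the longer GENCODE transcript. The matches of Hsp90b1 begin 42 and 147 bp before its GENCODE start, and that of Xbp1 247 bp after, also in an untranslated part. Both Hsp90b1 matches overlap an HRE core, since CCACG followed by C or T spells an HRE core on the other strand. Neither of the other 2 does.

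With 1 mismatch allowed, the number of member start regions with a match rose from 3 to 6. Pdia3, Pdia4 and Ddit3 joined, Hsp90b1 gained 2 more matches, and Ero1l and Atf6 had none. By this looser rule 3.81% of coding-start regions held a match, and for regions of like width to each member the share ran from 4.48% (Pdia4) to 15.9% (Ddit3). Substitutions are counted from the first C of CCAAT and name the base of the ERSE first. Pdia3 carried G19A at chr2:121413873-121413891, Pdia4 G19T at chr6:47813602-47813620 and Ddit3 C15G at chr10:127290702-127290720. The CCAAT block is intact in all 3, and the change is in the block at which Atf6 and Xbp1 are known to bind.
Pdia3: cgcagCCAATcggcggctgCCACActgcg
Pdia4: gaccaCCAATcacgggctgCCACTcggtt
Ddit3: gcctaCCAATcagaaagcgGCACGctggc

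The match of Pdia4 stands in the 250 bases before its RefSeq start (chr6:47813513-47813762, minus strand), printed in the direction of the gene with the match, which runs against the gene, in capitals. The stretch contains further CCAAT boxes, the binding site of NF-Y, in lower case.
Pdia4 upstream: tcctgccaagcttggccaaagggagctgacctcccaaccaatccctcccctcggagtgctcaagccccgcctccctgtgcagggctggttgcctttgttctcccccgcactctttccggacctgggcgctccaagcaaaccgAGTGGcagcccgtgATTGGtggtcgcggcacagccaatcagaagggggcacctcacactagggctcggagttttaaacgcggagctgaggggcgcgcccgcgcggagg

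CCAAT boxes were numerous in the same start regions. Hsp90b1 had 8, more than 99.1% of coding-start regions within 20% of its width. Pdia4, Hspa5 and Xbp1 had 6 each (above 99.0%, 98.4% and 95.9%), Ddit3 had 5 (85.7%) and Pdia3 had 4 (89.8%). Ero1l and Atf6, the 2 genes without any ERSE match, had 1 each. A box inside an ERSE is counted here as well, so the counts of CCAAT boxes and of ERSEs are not separate measures.

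**Figure D3:**
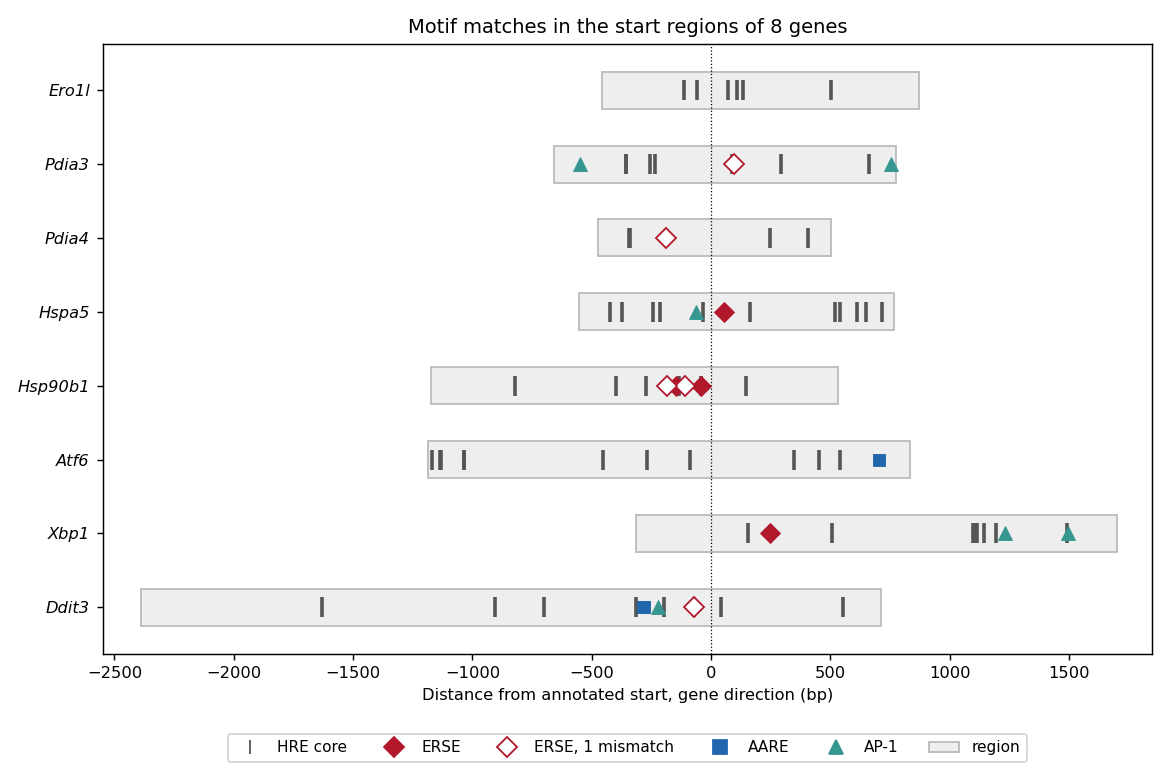
Motif matches in the own-start regions of the 8 genes by distance of the match from the annotated GENCODE start (bp, in the direction of the gene). Grey boxes are the accessible regions, filled diamonds exact ERSEs, open diamonds ERSEs with 1 mismatch, ticks HRE cores, squares AAREs and triangles AP-1 motifs. ERSE matches lie between 190 bp before and 247 bp after the start, while HRE cores reach from 1629 bp before to 1493 bp after it, and those of Xbp1 all lie after the start.

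HRE cores were common in the member regions and in the list as a whole. They occurred in 21 of 41 member regions (51.2%, interval 36.5 to 65.7), against 46.2% of all regions. Away from coding starts the share was 8 of 26 (30.8%, 16.5 to 50.0), against 39.0%. All 8 own-start regions held at least 1, as did 89.7% to 100% of coding-start regions of like width, so at this width nearly every start region has one. In the RefSeq promoter windows of 300 bp, Ddit3, Ero1l, Hsp90b1, Hspa5 and Pdia3 held a core, while Pdia4 and Xbp1 held none. Atf6 had no such window. Over all 32851 windows the share was 43.8%, and nothing is read from so few member windows. The number of cores was high at Hspa5, with 11 sites against a median of 4 at like width (above 98.5% of those regions), and at Atf6, with 10 against 6 (above 87.0%). Ero1l had 6 against 4 (above 73.7%), Xbp1 8 against 6 (72.0%) and Pdia3 6 against 4 (70.1%). Hsp90b1 with 6 against 5 (59.4%), Pdia4 with 3 against 3 (47.5%) and Ddit3 with 8 against 8 (38.1%) were near the median.

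The cores of Ero1l are shown because it is a known HIF target. In the 150 bases before its GENCODE start (chr14:45318772-45318921, minus strand, in the direction of the gene) there were 2, in capitals, the first on the opposite strand. The other 4 lay 71 to 504 bp after this start, and 3 of these were still upstream of the RefSeq start, which lies further into the gene.
Ero1l upstream: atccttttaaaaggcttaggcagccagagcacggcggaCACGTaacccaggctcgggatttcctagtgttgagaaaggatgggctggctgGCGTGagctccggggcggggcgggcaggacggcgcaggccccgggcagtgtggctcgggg

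AAREs, searched as TGATGNAAT or TTGCATCA, occurred in 3 member regions. One was the start region of Ddit3, where both forms overlapped at chr10:127290491-127290499, 283 bp upstream of the start. An AP-1 motif (TGACTCA or TGAGTCA) followed 223 bp before the start, and both are in capitals in the stretch chr10:127290474-127290573, of which 22 bases overlap an exon of the non-coding gene Gm4189. An AARE at this promoter is the known route by which Atf4 acts on Ddit3, so the match is background and not a result. Of coding-start regions of like width 6.35% held an AARE and 31.7% an AP-1 motif.
Ddit3 upstream: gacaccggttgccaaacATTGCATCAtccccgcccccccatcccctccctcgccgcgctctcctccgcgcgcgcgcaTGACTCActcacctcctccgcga

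The other 2 AAREs lay in the first intron of Atf6, 702 bp after the start, and in the region of 1.48 log2 CPM at chr14:45321231-45321462, 2491 bp upstream of Ero1l. Over all regions 3.32% held one.
Atf6: caaacTGATGTAATcctga
Ero1l: ggctcTTGCATCAgtgta

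AP-1 motifs were found in 14 of 41 member regions (34.1%, interval 21.6 to 49.5), against 22.1% of all regions, and in 9 of 26 away from coding starts (34.6%, 19.4 to 53.8), against 23.6%. Both of these intervals include the background share. Of the 8 own-start regions 4 held one, those of Pdia3, Hspa5, Ddit3 and Xbp1 (50.0%, 21.5 to 78.5). Of all coding-start regions, which had a smaller median width, 15.2% held one, a share below the interval. For coding-start regions of like width to each member the share ran from 14.5% to 31.7%, and its upper end lies inside the interval. In Atf6, 5 of 11 intronic regions held one, spread over 6391 to 100582 bp after the start. No member region matched ERSE-II (ATTGG, 1 base, CCACG), the unfolded protein response element TGACGTGG or the cAMP response element TGACGTCA, which were present in 0.0400%, 0.912% and 1.10% of all regions.

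The other genes of the pathway were taken from a list of 46 in 4 roles. Of these, 41 had a region at an own start (89.1%, against 64.1% of coding genes). For Atf4, Gpx7, Derl1, Derl3 and Hyou1 no such region was in the list used here, which does not show that their starts were closed. The 41 had a median of 5.45 log2 CPM per kb, against 4.75 over the 14040 coding genes with such a region and 5.90 for the 8 members. Chaperones had a median of 5.91, and all 11 were above 4.75. That line is not matched for width. Within its width bin the chaperone Dnajc10 was below the median, with 39.0% of the regions lower. Sensors and transducers had 5.59, genes of ER-associated degradation 5.40 and oxidoreductases 4.94. Without division by width, the highest of each role by log2 CPM were Eif2ak3, the kinase PERK (6.90), the co-chaperone Dnajc3 (6.88), the thiol protein Erp44, which retrieves Ero1 from the Golgi (6.97), and Derl2, a derlin of the degradation machinery (6.91). Per kb the highest were Ppp1r15b among the sensors and transducers (6.29), Creld2 among the chaperones (6.81), Erp44 (6.57) and Derl2 (6.73). Of the 10 oxidoreductases, the other 9 lay between 4.19 (Gpx8) and 5.65 per kb (Pdia6), with Ero1lb, the paralogue of Ero1l, at 4.80.

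**Figure D4:**
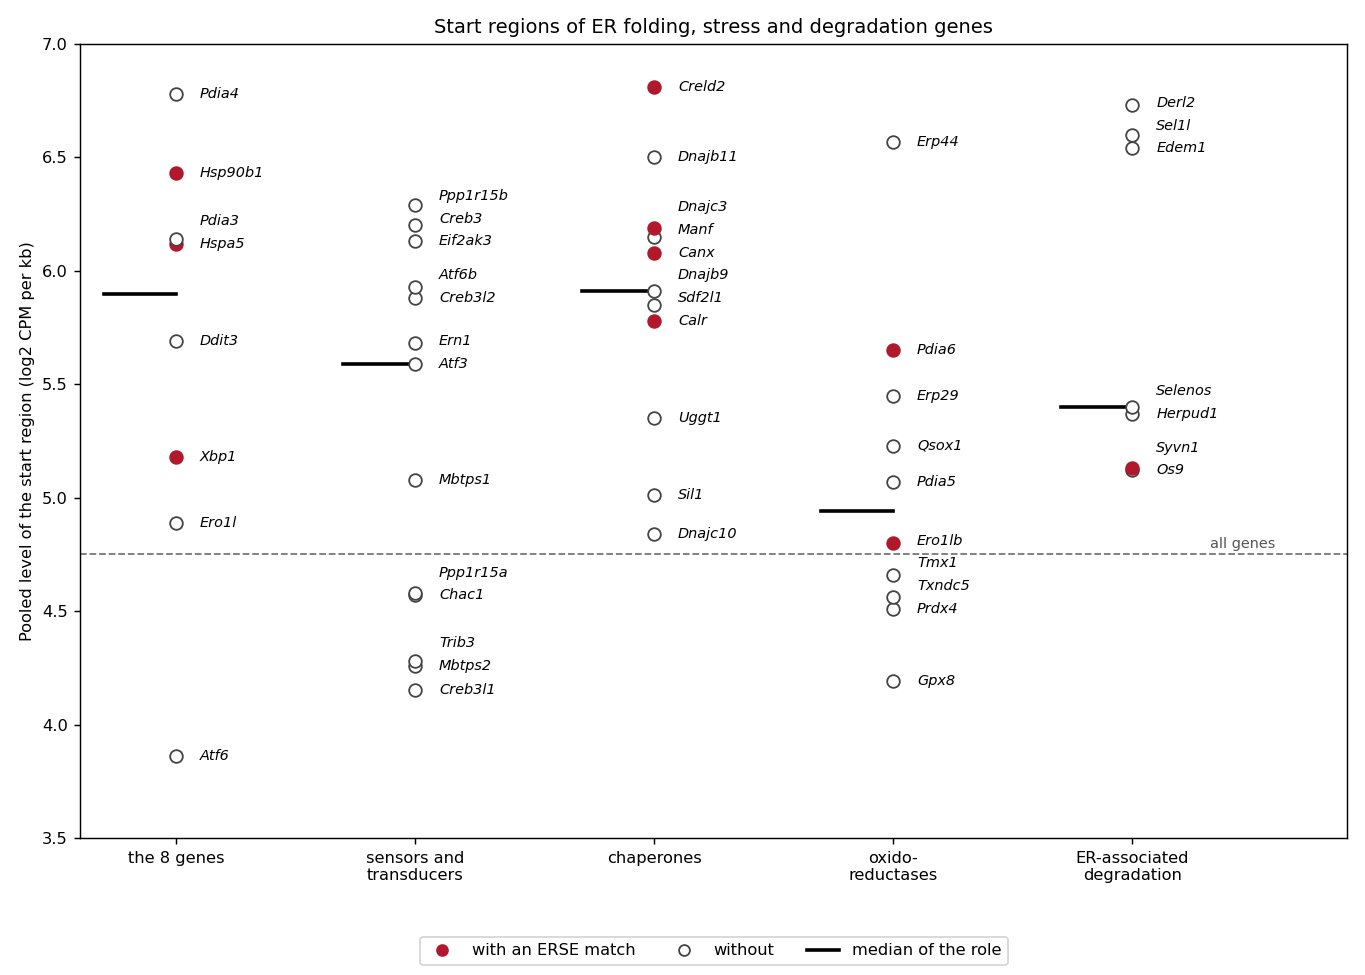
Pooled level of the own-start region (log2 CPM per kb of width) for the 8 genes and 41 further ER genes by role. Filled points have an exact ERSE in an own-start region, short bars are medians, and the dashed line is the median of 14040 coding genes (4.75). On this scale the chaperones and the degradation genes lie wholly above the line, and the sensors and oxidoreductases lie on both sides. The line is not matched for width.

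Exact ERSEs marked 7 of the 41 pathway genes (17.1%, against 0.185% of coding genes): the lectin chaperones Canx and Calr, the co-chaperone Dnajc3, Creld2, the isomerase Pdia6, the oxidase Ero1lb and the ubiquitin ligase Syvn1 (Hrd1). The list is made of known genes of this response and the consensus comes from promoters of this kind, so the difference from the background is not independent evidence. With Hspa5, Hsp90b1 and Xbp1 these made up 10 of the 26 genes with an ERSE in an own-start region. The 11 sites at these 10 genes all lay within 300 bp of a start, from 192 bp before to 247 bp after, and 9 of the 11 began upstream of it. Sites at the other genes with an ERSE lay on both sides of this limit, as at Pan2 (48 bp before) and Tmem179 (565 bp before). Of the 11, 7 ran in the direction of the gene and 4 against it, and 4 overlapped an HRE core. The 9 bases between the blocks were rich in G and C, at 66.7% to 88.9%. At the other genes with an ERSE they ran from 33.3% (Slc5a3) to 88.9% (Pan2). The site of Creld2 is shared with the neighbouring gene Alg12, as that of Hsp90b1 is with Ttc41. The sites of the 7 pathway genes are printed for comparison with those of the members.
Canx: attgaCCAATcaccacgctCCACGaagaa
Calr: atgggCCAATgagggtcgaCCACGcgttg
Dnajc3: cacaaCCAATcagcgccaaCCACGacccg
Creld2: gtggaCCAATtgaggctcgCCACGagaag
Pdia6: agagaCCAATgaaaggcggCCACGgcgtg
Ero1lb: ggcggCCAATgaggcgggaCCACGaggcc
Syvn1: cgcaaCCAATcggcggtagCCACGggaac

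Per kb, the start regions of these genes ranged from 4.80 (Ero1lb) to 6.81 log2 CPM (Creld2), so an ERSE did not go with a single level. Ero1lb carries an exact ERSE that was not found at Ero1l. The presence of a match describes the sequence of an accessible region and does not show that Atf6, Xbp1 or a HIF was bound there in these cells.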

How the data were processed

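Reads of the 11 ATAC-seq samples were processed by the study's authors, who trimmed them, aligned them to mm10 with Bowtie2, removed duplicates with Picard 2.17.8, called peaks with MACS2 2.2.7.1, merged peaks over samples, removed blacklisted regions, counted cuts and normalised by TMM with edgeR 3.24.3. A shift for the Tn5 offset is not given in the sources used here. The deposited list holds 1 value per region, read as a log2 CPM: 460 values are below 0, and 2 to the power of the values sums to 1012761. That reading is inferred. It has 0 columns per sample, so no test between groups was run. Merging can widen regions with the number of contributing samples, which was not measured here.

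Regions (converted to 1-based) were joined to GENCODE vM21 with Python 3.11.15, numpy 2.4.6 and pandas 2.3.3, and motifs were searched with pysam 0.24.0 in the GRCm38 RefSeq genome, whose chromosome lengths were compared with the list. Overlapping matches counted as 1 site. The motif search was tested on simulated data. Distances run from the first base of a match in the direction of the gene. Promoters come from RefSeq (GRCm38), where 8 of 9 members were matched. The members and lists were chosen with earlier results of these data known. Named were all members, their own-start regions, the highest other region per gene, every ERSE or AARE, and pathway genes without an own-start region, with an ERSE, or highest in their role. Genes described by their level per kb were chosen after the values were seen.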

Additional observations from a re-analysis of the deposited data

How the results depend on the processing

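No paired analysis was possible because each region carries 1 pooled value, and no replicate could be left out. Of 53 recomputed values, 43 moved less than 1.5 times (counts) or stayed inside the interval of the main value (shares and medians), among them the 8 genes with an own-start region under every alternative tried. The number of member regions fell from 41 to 23 with regions at least 500 bp wide, to 19 with a level of at least 3 log2 CPM and to 24 over gene bodies alone. The median level of 2.66 log2 CPM became 4.29 and 4.88 under the same width and level limits, and the share with an HRE core of 51.2% became 78.3% and 78.9%. That share was 29.3% for the longer core RCGTGC and 34.1% for the central 200 bp. The start regions with an ERSE rose from 3 to 6 with 1 mismatch, and stayed at 3 with spacings of 8 to 10 bases. Fewer regions, or a longer or shorter sequence searched, are built into these alternatives. Depth per sample is unknown.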
